A study of Mus musculus with 6 samples.

Results

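Simple keratins and the proteins of desmosomes were examined as 10 genes, namely Krt7, Krt8, Krt18, Krt19, Perp, Dsp, Pkp2, Dsg2, Dsc2 and Jup, out of 18194 genes with a probe set of their own. The genes were chosen by name, with earlier results of the same arrays in view, among them large differences of Krt8, Krt18, Krt19 and Perp between Ncl siRNA and control siRNA. All 23 probe sets annotated to exactly 1 of these symbols were read, out of 45101 on each array. Differences from control are therefore given as values with standard errors (SE) and no test, and only the difference between the siRNAs was tested.

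E14Tg2a cells, a line of mouse embryonic stem cells, were transfected with Ncl siRNA #1, Ncl siRNA #2 or a control duplex directed at firefly luciferase, and total RNA was taken at 96 h. Each of the 3 groups had 2 Affymetrix arrays, whose log2 values ran from 2.47 to 15.34. The labels give no separate cultures for the replicates, so the p-values cover the spread between arrays alone, which may be technical. Ncl encodes nucleolin, a protein of the nucleolus, and on its brightest probe set siRNA #1 left 72.9% of the control level and siRNA #2 left 72.5%.

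Keratins are intermediate filament proteins that pair a type II chain with a type I chain. In simple epithelia, such as the trophectoderm of the blastocyst, the type II chains Krt8 and Krt7 pair with the type I chains Krt18 and Krt19. These filaments end at desmosomes, junctions in which the cadherins desmoglein and desmocollin reach across to the next cell, plakoglobin (Jup) and plakophilins bind the cadherin tails, and desmoplakin (Dsp) ties them to the keratin. Perp is a membrane protein of desmosomes and a known target of p53.

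Krt8 and Krt18, each other's usual partners, gave nearly the same pattern over the 6 arrays, as did some genes outside the 10. Krt8 and Krt18 lie on mouse chromosome 15 with no other measured gene between them. The 250 bases before the start of 5 of the 10 genes were taken from RefSeq (GRCm38.p6) and searched on each strand for 5 motifs, namely the TATA box with the letters TATAAA, the AP-1 site with TGANTCA, the TEAD site with GGAATG, the GATA site with AGATAA and the GC box with GGGCGG. The other 5 genes were Krt19, Perp, Pkp2, Dsg2 and Dsc2. The sequences are printed 5′ to 3′ on the strand of the gene, to set the keratin pair beside Krt7, Dsp and Jup. Capitals mark the motif matches.
Krt8, chr15:102004343-102004592, minus strand: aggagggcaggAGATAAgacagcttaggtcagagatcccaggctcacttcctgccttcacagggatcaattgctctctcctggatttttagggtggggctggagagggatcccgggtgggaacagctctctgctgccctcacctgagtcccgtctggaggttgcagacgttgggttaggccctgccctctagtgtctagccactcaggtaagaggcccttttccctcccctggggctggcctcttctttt
Krt18, chr15:102027966-102028215, plus strand: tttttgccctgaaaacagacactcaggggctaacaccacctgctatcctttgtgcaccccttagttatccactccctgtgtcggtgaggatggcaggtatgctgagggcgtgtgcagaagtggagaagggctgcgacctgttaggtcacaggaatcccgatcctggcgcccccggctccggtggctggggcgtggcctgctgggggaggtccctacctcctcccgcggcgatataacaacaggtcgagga
Krt7, chr15:101412153-101412402, plus strand: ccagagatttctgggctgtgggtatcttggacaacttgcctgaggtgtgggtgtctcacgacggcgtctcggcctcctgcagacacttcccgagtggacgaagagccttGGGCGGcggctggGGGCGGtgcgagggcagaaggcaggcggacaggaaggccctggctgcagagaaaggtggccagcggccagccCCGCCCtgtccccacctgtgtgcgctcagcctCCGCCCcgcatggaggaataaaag
Dsp, chr13:38151044-38151293, plus strand: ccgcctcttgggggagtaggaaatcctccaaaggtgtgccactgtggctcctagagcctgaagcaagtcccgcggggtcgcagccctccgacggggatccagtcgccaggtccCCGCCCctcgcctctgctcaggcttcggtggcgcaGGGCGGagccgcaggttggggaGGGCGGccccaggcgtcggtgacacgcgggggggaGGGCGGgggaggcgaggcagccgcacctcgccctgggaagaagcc
Jup, chr11:100397791-100398040, minus strand: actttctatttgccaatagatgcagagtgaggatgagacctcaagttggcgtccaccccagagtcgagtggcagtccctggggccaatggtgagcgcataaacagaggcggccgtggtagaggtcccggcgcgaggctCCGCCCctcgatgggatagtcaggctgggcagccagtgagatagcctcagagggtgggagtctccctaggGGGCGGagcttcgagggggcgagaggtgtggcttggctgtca

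Krt8 held 1 GATA match, and none of the 5 motifs was present in the Krt18 window. Krt7 and Dsp had 4 GC boxes each and Jup had 2, none of which overlapped another motif. Among 32851 promoter windows of the same length, 32.7% held a GC box, 9.99% the GATA letters, 12.4% the TATA box, 12.6% the TEAD letters and 6.75% the AP-1 letters. Krt8 and Krt18 shared none of these motifs in these windows. Each motif taken alone was absent from most of the 32851 windows, and the share of windows with none of the 5 was not counted. Any part of these motifs in the array patterns was not tested. A match is only a run of letters, and the absence of one covers this window alone.

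Simple keratins were high in every Ncl siRNA array. On its brightest probe set Krt8 read 11.83 and 11.76 with siRNA #1, 12.70 and 12.72 with siRNA #2, and 8.66 and 8.78 with control siRNA. Every Ncl siRNA array lay above each control array, and the siRNA #2 arrays lay above those of siRNA #1. The log2 difference from control was 3.07 (SE 0.06) with siRNA #1, which is 8.40-fold, and 3.99 (SE 0.06) with siRNA #2, or 15.8-fold. Its other 2 probe sets, both of a kind that can read related sequences, gave 3.13 and 2.90 with siRNA #1 and 4.05 and 3.75 with siRNA #2, so the 3 readings moved together.

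Krt18, the type I partner of Krt8, read 11.18 and 11.06 with siRNA #1, 12.20 and 12.20 with siRNA #2, and 7.92 and 7.98 with control siRNA. No groups overlapped. The log2 difference from control was 3.17 (SE 0.07) with siRNA #1 and 4.25 (SE 0.07) with siRNA #2, the second of which is 19.0-fold. This was the largest difference of the 10 genes with siRNA #2.

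Krt7, a type II keratin of ducts and of trophoblast, read 7.84 and 7.53 with siRNA #1, 8.54 and 8.51 with siRNA #2, and 6.28 and 6.01 with control siRNA. It had the smallest differences of the 4 keratins, at 1.54 (SE 0.14) with siRNA #1 and 2.38 (SE 0.14) with siRNA #2. The order of the groups was the same as for Krt8 and Krt18.

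Krt19, a small type I keratin without the usual tail, departed from that order. It read 10.43 and 10.21 with siRNA #1, 10.31 and 10.52 with siRNA #2, and 6.62 and 6.46 with control siRNA. The arrays of the siRNAs overlapped each other and stood far above control. The log2 difference was 3.78 (SE 0.10) with siRNA #1, the largest of the 10 genes for that siRNA, and 3.88 (SE 0.10) with siRNA #2.

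**Figure D1:**
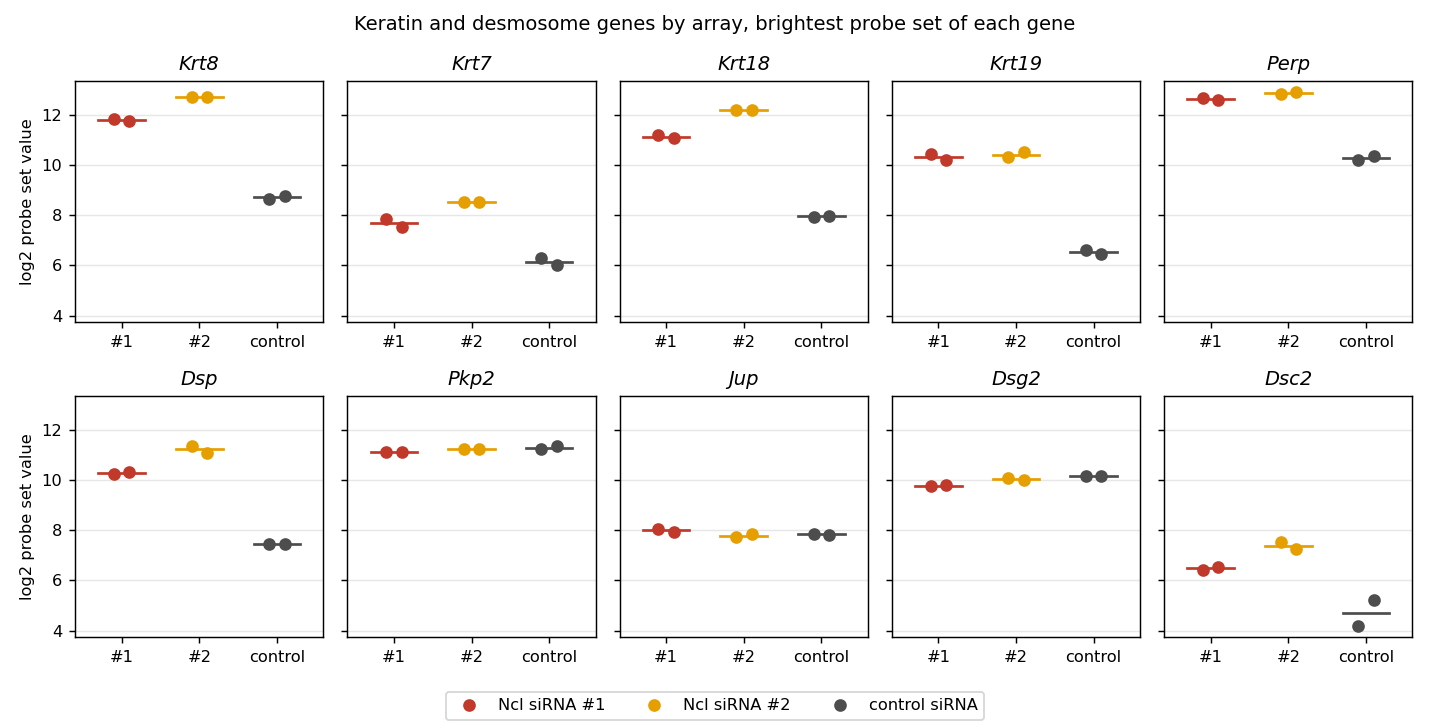
Log2 probe set values (vertical axis) of the 10 genes on each array, with points for arrays and lines for the means of the 2 arrays of Ncl siRNA #1, Ncl siRNA #2 and control siRNA. The 4 keratins, Perp, Dsp and Dsc2 stand above control in every Ncl siRNA array, whereas Pkp2, Jup and Dsg2 differ little, and the control arrays of Dsc2 lie far apart.

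Perp and Dsp stood high in the same arrays as the keratins. Perp read 12.66 and 12.60 with siRNA #1, 12.82 and 12.90 with siRNA #2, and 10.22 and 10.37 with control siRNA. Its log2 difference was 2.34 (SE 0.06) with siRNA #1 and 2.57 (SE 0.06) with siRNA #2, so it stood higher with each siRNA and by similar amounts.

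Dsp, the plakin that anchors keratin at the junction, read 10.24 and 10.32 with siRNA #1, 11.34 and 11.08 with siRNA #2, and 7.46 and 7.45 with control siRNA. None of its groups overlapped. Its log2 difference of 2.83 (SE 0.09) with siRNA #1 and 3.76 (SE 0.09) with siRNA #2 came close to that of Krt8. A second probe set gave 2.64 (SE 0.11) and 3.69 (SE 0.11). The dimmest of the 3, which read between 4.05 and 4.75 and stood under the lower quartile in each control array, gave 0.37 (SE 0.19) and 0.40 (SE 0.19). The mean of the 3 probe sets was accordingly lower, at 1.95 with siRNA #1 and 2.62 with siRNA #2.

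Pkp2 and Jup, the 2 plaque proteins among the 10 that link cadherins to Dsp, differed little from control. Pkp2, plakophilin 2, read 11.09 and 11.09 with siRNA #1, 11.24 and 11.22 with siRNA #2, and 11.21 and 11.34 with control siRNA. Its log2 difference was -0.19 (SE 0.06) with siRNA #1 and -0.04 (SE 0.06) with siRNA #2. The siRNA #2 arrays lay inside the control range, and the 3 other probe sets ranged from -0.22 to 0.16 with siRNA #1 and from -0.48 to 0.26 with siRNA #2. Without control replicate 2 the siRNA #2 value of Pkp2 was 0.02, and its sign is not settled.

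Jup, plakoglobin, which also serves adherens junctions, has 1 probe set. It read 8.06 and 7.91 with siRNA #1, 7.74 and 7.83 with siRNA #2, and 7.84 and 7.81 with control siRNA. The log2 difference was 0.16 (SE 0.11) with siRNA #1 and -0.04 (SE 0.11) with siRNA #2, within the spread seen between arrays. For siRNA #2 the value ran from -0.09 to 0.00 over the alternatives.

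The 2 desmosomal cadherins, whose genes lie in the same cluster of cadherin genes, differed in their readings. Dsg2, the desmoglein of simple epithelia, read 9.75 and 9.79 with siRNA #1, 10.07 and 9.99 with siRNA #2, and 10.16 and 10.15 with control siRNA. All Ncl siRNA arrays were below each control array, by a log2 difference of -0.39 (SE 0.07) with siRNA #1 and -0.13 (SE 0.07) with siRNA #2. Its 5 other probe sets gave -0.29 to 0.29 with siRNA #1 and -0.21 to 0.29 with siRNA #2, and those above control were the dimmest with each siRNA and, with siRNA #2 alone, 1 more at 0.07 (SE 0.13).

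Dsc2, desmocollin 2, read 6.43 and 6.53 with siRNA #1, 7.53 and 7.23 with siRNA #2, and 4.17 and 5.20 with control siRNA. Control replicate 1 was below the lower quartile of its array. The log2 difference was 1.80 (SE 0.23) with siRNA #1 and 2.70 (SE 0.23) with siRNA #2, against 1.28 and 2.18 without control replicate 1 and 2.31 and 3.21 without control replicate 2. The other Dsc2 probe set read 5.48 and 5.10 with siRNA #1, 5.88 and 6.0 with siRNA #2, and 5.50 and 5.21 with control siRNA. There the difference was -0.06 (SE 0.18) with siRNA #1 and 0.59 (SE 0.18) with siRNA #2, so the probe sets of Dsc2 disagree on siRNA #1. The mean of both probe sets gave 0.87 with siRNA #1 and 1.64 with siRNA #2.

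Of the 10 genes, 7 had all 4 Ncl siRNA arrays above each control array, as had 23.4% of all genes, and 1 had them below, as had 26.7%. The same 7 were at least 2-fold higher with each siRNA, which held for 3.9% of all genes. Dsc2 counts here through its brighter probe set, and the mean of its probe sets was under 2-fold with siRNA #1. The median log2 difference of the 10 genes was 2.07 with siRNA #1 and 2.63 with siRNA #2, beside -0.05 and -0.04 over all genes. As the genes were chosen with such differences known, nothing is read from these counts.

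**Figure D2:**
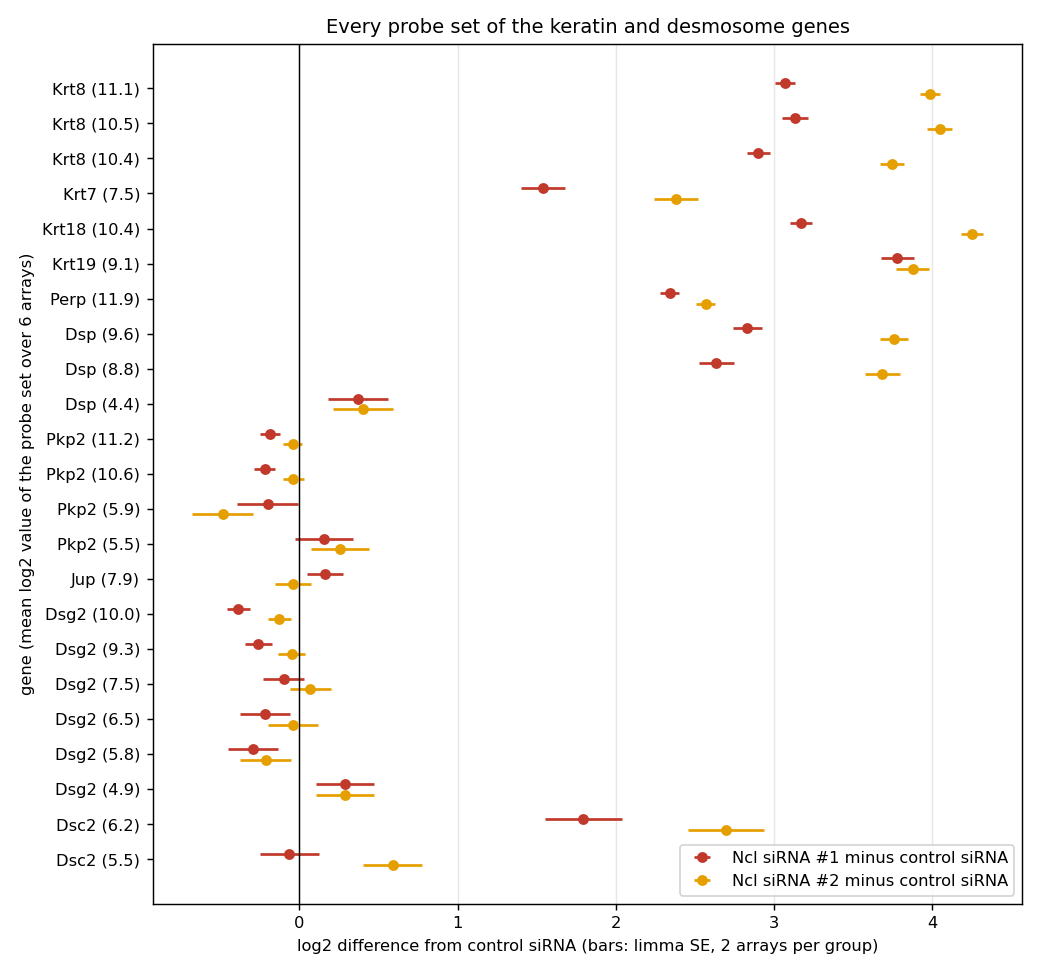
Log2 difference from control siRNA (horizontal axis, bars 1 SE from limma, 2 arrays per group) for each of the 23 probe sets, for Ncl siRNA #1 and Ncl siRNA #2. Numbers in brackets are the mean log2 value of the probe set over the 6 arrays. The 3 Krt8 probe sets and the brighter 2 of Dsp lie far to the right, those of Pkp2, Jup and Dsg2 lie near 0, and those of Dsc2 disagree.

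The control arrays also held transcripts of other organs. Calls for these and the next markers used the mean of both Ncl siRNAs minus control, where 20.3% of all genes rose and 21.7% fell. Of 7 airway secretory genes 6 were lower in the Ncl siRNA arrays, and the log2 of their summed level ran from 7.64 to 7.92 with siRNA #1 and 7.73 to 7.97 with siRNA #2, against 13.19 to 13.22 with control siRNA. Scgb1a1, the club cell secretory protein, read below the lower quartile in all 4 Ncl siRNA arrays and 12.96 in each control array. For 9 alveolar genes, 7 of them lower, the sum ran from 9.70 to 9.73, 9.53 to 9.55 and, in the controls, 11.69 to 11.85. Of 8 heart muscle genes 7 were lower, with sums of 8.31 to 8.48, 8.27 to 8.30 and, in the controls, 9.42 to 9.69. The 24 probe sets of the poly-A control RNAs Dap, Lys, Phe and Thr averaged 8.57 to 8.86 with siRNA #1, 8.39 to 8.46 with siRNA #2, and 7.58 to 7.74 with control siRNA. Airway epithelium expresses simple keratins and heart muscle has desmosomes, and the part of these transcripts in the readings of the 10 genes was not tested. Markers of mesothelium, another cell layer with simple keratins, moved the other way, as 4 of 5 rose, with sums of 9.11 to 9.22 with siRNA #1, 9.14 to 9.16 with siRNA #2 and 8.32 to 8.39 with control siRNA.

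Markers of embryonic stem cells, the labelled cell type, were high in every array. The log2 of the summed level of 7 embryonic stem cell genes was 15.98 to 16.00 with siRNA #1, 15.80 to 15.81 with siRNA #2, and 16.23 in each control array, with 6 of 7 lower in the Ncl siRNA arrays. Of 7 measured trophoblast genes that are no keratins, 5 rose. The sum of the 7 was 11.37 to 11.47 with siRNA #1, 11.68 to 11.87 with siRNA #2, and 9.76 to 9.88 with control siRNA. Tfap2c, 1 of the 7, averaged 10.71 with siRNA #1, 11.07 with siRNA #2 and 9.02 with control siRNA, so the sums rest largely on it. In RNA from a whole culture, fewer cells of a type and less RNA per cell cannot be told apart.

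The siRNAs were then compared with each other. The control arrays do not enter this difference, but they enter its SE and p through the shared spread of the model, and they counted in the choice of the brightest probe set. With only the 4 arrays of the siRNAs in the fit, 7 members were called as well. The earlier results known for Krt8, Krt18, Krt19 and Perp were mean differences of both siRNAs from control. Keratins and Dsp were lower with siRNA #1 than with siRNA #2, except Krt19. Krt18 differed by -1.08 (SE 0.07, n = 2 per group, limma adjusted p = 8.52e-10), which is 2.11-fold lower with siRNA #1. Krt8 differed by -0.92 (SE 0.06, limma adjusted p = 3.06e-09) and Dsp by -0.93 (SE 0.08, limma adjusted p = 3.25e-07). In these 3 genes each siRNA #1 array read below each siRNA #2 array, a separation whose share over all genes was not counted. The call of each held under all 16 alternatives run. Krt7 differed by -0.84 (SE 0.14, limma adjusted p = 4.93e-04), a call lost only with variances fitted without a trend (limma adjusted p = 0.0600, the highest of 16 alternatives, the lowest being 1.21e-05).

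Smaller or less certain differences were found in Perp, at -0.23 (SE 0.06, limma adjusted p = 0.0170), Dsg2, at -0.26 (SE 0.07, limma adjusted p = 0.0255), and Dsc2, at -0.90 (SE 0.23, limma adjusted p = 0.0176). When every probe set on the array was tested, 7 of the 23 were called lower with siRNA #1 and 0 higher, beside 0.958% and 1.94% of 45101 probe sets. The calls of Perp, Dsg2 and Dsc2 were lost there, with limma adjusted p of 0.0520, 0.0724 and 0.0584. The second Dsc2 probe set gave -0.65 (limma adjusted p = 0.0709), in the same direction. Perp kept its call under 12 of 16 alternatives, and its losses included those without siRNA #2 replicate 1 (-0.27) or replicate 2 (-0.19). Dsg2 kept it under 10 of 16. Its losses included those without siRNA #1 replicate 1 (-0.24), siRNA #2 replicate 1 (-0.22) or siRNA #2 replicate 2 (-0.30). The smallest difference of Dsg2 over the alternatives was -0.15, with the mean of its probe sets. Dsc2 kept it under 12 of 15, and its losses included those without siRNA #1 replicate 1 (-0.85) or siRNA #2 replicate 1 (-0.75). Dsg2, unlike the others, stood below control with each siRNA and was farther below it with siRNA #1.

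Krt19, Pkp2 and Jup did not pass. Krt19 differed by -0.10 (95% confidence interval -0.30 to 0.11, limma adjusted p = 0.581), an interval that leaves out the differences of Krt8 and Krt18. Pkp2 differed by -0.14 (95% confidence interval -0.27 to -0.02, limma adjusted p = 0.147) and Jup by 0.20 (95% confidence interval -0.03 to 0.44, limma adjusted p = 0.285). In all, 7 of the 10 genes were called lower with siRNA #1 and 0 higher, beside 2.3% and 6.18% of all 18194 genes, and without siRNA #2 replicate 1 the calls were 4. The 10 genes were chosen with large differences from control in view, and the share among genes with like differences was not counted. Ncl itself differed by 0.01 (SE 0.04, limma adjusted p = 0.941) on its brightest probe set. Among embryonic stem cell markers 6 of 7 were higher with siRNA #1, and among trophoblast markers 3 of 7 were lower with siRNA #1 and 0 higher. Their part in the keratin differences was not tested.

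**Figure D3:**
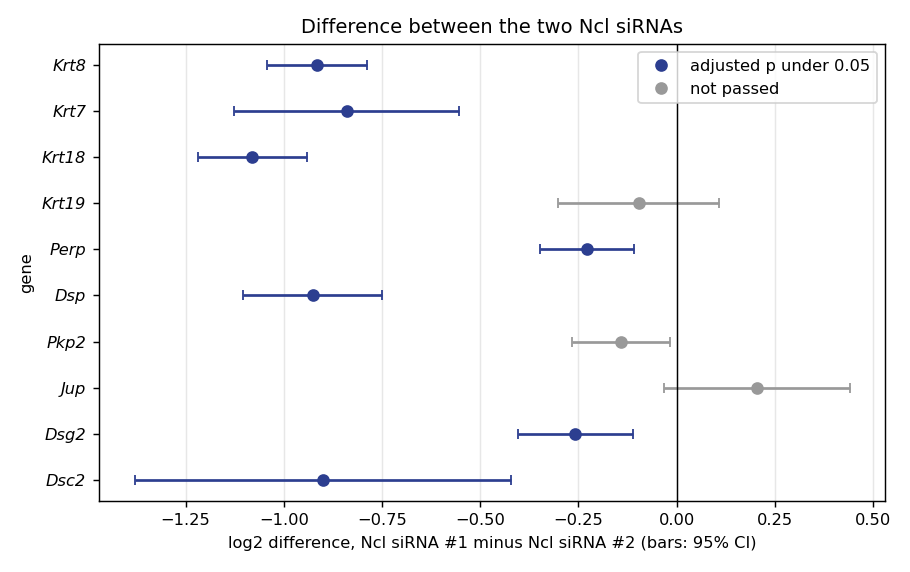
Log2 difference between Ncl siRNA #1 and Ncl siRNA #2 (horizontal axis, siRNA #1 minus siRNA #2) for the 10 genes, with 95% confidence intervals from limma. Krt8, Krt18, Krt7 and Dsp lie between -0.84 and -1.08, Dsc2 at -0.90 with a wide interval, and Krt19 near 0.

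Genes with the pattern nearest to the keratin pair were sought among all 18194 genes by the Euclidean distance between log2 values centred on the mean of each gene over the 6 arrays. Nearest to Krt8 were Krt18 (0.27), Gpat3, an enzyme of triglyceride synthesis (0.27), the transcription factor Ets1 (0.29), Dsp (0.36) and Slc25a24, a mitochondrial carrier (0.36). Nearest to Krt18 were Sbsn, suprabasin of the epidermis (0.22), Krt8 (0.27), Ets1 (0.27), Htra1, a secreted serine protease (0.32), and Igf2, a growth factor (0.41). Krt8 and Dsp are thus among the few nearest, a description over 6 arrays that share their groups. Gpat3 lay as near to Krt8 as Krt18 did, and Sbsn lay nearer to Krt18 than Krt8 did. The distance counts the difference from control, which was in view when the members were chosen.

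Related genes outside the 10 were read from lists drawn up by family, against control with the mean of both Ncl siRNAs (20.3% of all genes rose and 21.7% fell, limma adjusted over all genes). The lists were drawn up with earlier results of these data known. Most other keratins did not pass. Of 20 measured type II keratins out of 22, 1 rose, 17 did not pass and 2 fell, with a median of -0.14. Krt5, a keratin of basal epithelial cells, rose by 0.43 (SE 0.14), with 0.25 for siRNA #1 and 0.62 for siRNA #2. Its call was lost without control replicate 1 or without siRNA #2 replicate 2 (0.37 and 0.39). Krt76 fell by 0.51 (SE 0.14), with -0.75 for siRNA #1 and -0.27 for siRNA #2. Krt86 fell by 0.50 (SE 0.14). The Krt76 call was lost without control replicate 2 (-0.46), and Krt86 read below the lower quartile in the 4 Ncl siRNA arrays.

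Of 22 measured type I keratins out of 25, 4 rose, 15 did not pass and 3 fell, with a median of -0.09. Krt17, a keratin of basal and injured epithelium, read 6.40 and 6.12 with siRNA #1, 5.58 and 5.78 with siRNA #2, and 8.54 and 8.76 with control siRNA. It fell by 2.68 (SE 0.13, limma adjusted p = 3.23e-13), opposite to Krt19, in the arrays in which the airway genes were lower. Krt42 fell by 0.94 (SE 0.09). Krt12, known from the cornea, rose by 1.42 (SE 0.19) from control readings under the lower quartile of their arrays, and Krt15, of basal epithelium, by 1.30 (SE 0.17). Between the siRNAs, 0 of the 20 type II keratins passed. Of the 22 type I keratins, 1 was lower with siRNA #1, 1 was higher and 20 did not pass. The higher 1 was Krt17, by 0.58 (SE 0.15, limma adjusted p = 0.0217).

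Plakins were among the other desmosome genes that rose. Of 13 measured genes out of 16 in that list, 7 rose, 5 did not pass and 1 fell, with a median of 0.27 beside -0.05 over all genes. Pkp3, plakophilin 3, read 8.56 and 8.27 with siRNA #1, 8.63 and 8.84 with siRNA #2, and 7.08 and 7.14 with control siRNA. It rose by 1.46 (SE 0.10, limma adjusted p = 1.15e-10), whereas its relative Pkp2 stood near control. Eppk1, epiplakin, rose by 1.16 (SE 0.09), Plec, plectin, by 0.99 (SE 0.08), and Ppl, periplakin, by 0.98 (SE 0.14), all of them plakins that bind intermediate filaments, as Dsp does. The desmogleins and desmocollins of stratified epithelia, Dsg1a, Dsg1b and Dsc3, did not pass, and Dsg1a and Dsg1b read below the lower quartile in all 6 arrays. Dsc1 also read below it in all 6 arrays, so its size of change is uncertain. It fell by 0.35 (SE 0.13), a call lost under 5 alternatives, among them without control replicate 2 (-0.26) and without siRNA #2 replicate 1 (-0.32) or 2 (-0.38).

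Among 16 other intermediate filament genes, 8 rose, 2 fell and 6 did not pass (median 0.26). Nefm, a neurofilament subunit, rose by 2.47 (SE 0.15), Prph, peripherin, by 2.07 (SE 0.12), Vim, vimentin, by 1.22 (SE 0.06), and Lmna, lamin A of the nucleus, by 1.14 (SE 0.08). Between the siRNAs, 2 of the 16 were lower with siRNA #1, 3 were higher and 11 did not pass. Vim and Lmna were lower with siRNA #1, by -0.55 (SE 0.07, limma adjusted p = 2.43e-05) and -0.84 (SE 0.09, limma adjusted p = 4.10e-06). The neurofilament genes Nefl and Nefh and Synm, synemin, were higher with siRNA #1, by 0.22 (SE 0.07), 0.26 (SE 0.08) and 0.44 (SE 0.13), with limma adjusted p of 0.0380, 0.0354 and 0.0430. Without siRNA #1 replicate 1 (0.22, 0.24 and 0.39) or siRNA #2 replicate 1 (0.14, 0.30 and 0.40) these 3 calls were lost, and those of Nefh and Synm also without siRNA #2 replicate 2 (0.23 and 0.48). The Vim call was lost with no variance trend. The alternatives for these genes and for Cdx2 were run after the data were seen.

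Proteins known to bind or organise keratin were 9, of which 4 rose, 1 fell and 4 did not pass (median -0.05). Sfn, the epithelial 14-3-3 protein, rose by 2.06 (SE 0.08), Fam83h, which organises keratin filaments, by 1.13 (SE 0.10), Tchp, trichoplein, by 0.43 (SE 0.10) and Hspb1, a small heat shock protein, by 0.19 (SE 0.03). The Tchp call was lost without control replicate 1 (0.31). The Hspb1 call was lost with variances fitted without a trend.

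Of 18 transcription factors of simple epithelia and trophectoderm, 12 rose, 2 fell and 4 did not pass (median 0.45). Gata3 rose by 2.90 (SE 0.17), Fosl1, a subunit of AP-1, by 2.83 (SE 0.13), Tfap2c by 1.86 (SE 0.08), and Cdx2 by 1.80 (SE 0.13). Gata3, Tfap2c and Cdx2 also stand among the trophoblast genes above. Between the siRNAs, 4 of the 18 were lower with siRNA #1, 1 was higher and 13 did not pass. Cdx2 was lower with siRNA #1, by -0.84 (SE 0.16, limma adjusted p = 0.00146), a call lost with no variance trend. Grhl2, a factor of epithelial junction genes, fell by 0.49 (SE 0.07).

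**Figure D4:**
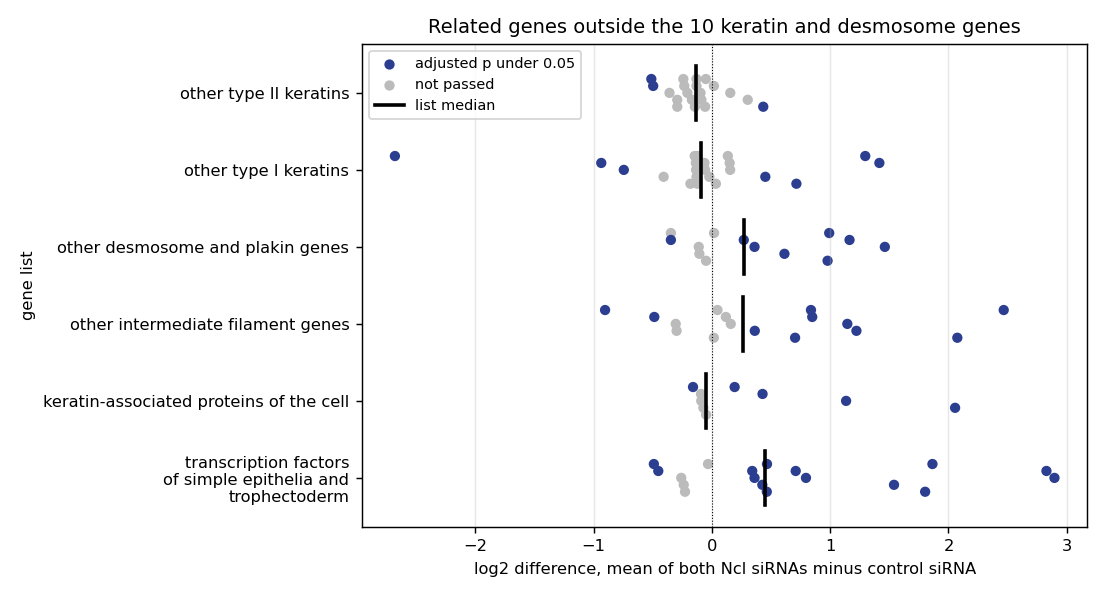
Log2 difference between the mean of both Ncl siRNAs and control siRNA (horizontal axis) for each measured gene of 6 lists, with blue points for genes that passed, grey points for those that did not and black lines for list medians. Most other keratins lie near 0 with Krt17 at -2.68, and 12 of 18 transcription factors rose.

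None of the 6 measured genes beside Krt8 and Krt18 rose in this test, by which 20.3% of all genes rose. So few genes cannot show a departure from that share. The 3 measured genes on either side, in the order of GRCm38.p6, were Krt4, Krt79 and Krt78 before and Eif4b, Tns2 and Spryd3 after. Tns2, a focal adhesion protein, fell by 0.79 (SE 0.13), and Eif4b, a translation initiation factor, fell by 0.15 (SE 0.04), a call lost without control replicate 1, without control replicate 2 (-0.15 and -0.14) or with no variance trend. Beside Krt19, Krt15 rose as above and Krt13 rose by 0.71 (SE 0.19), with 1.06 for siRNA #1 and 0.37 for siRNA #2. The Krt13 call was lost without control replicate 1 (0.49), with no variance trend or when all its probe sets were averaged (0.19). Krt14, Krt16 and Krt36 did not pass, and Krt17 fell. Over all 51 neighbours of the 10 genes, 9 rose, 14 fell and 28 did not pass. Of these neighbours, 34 stood in none of the lists above, and 7 of them rose and 10 fell. Over all genes, 20.3% rose and 21.7% fell.

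**Figure D5:**
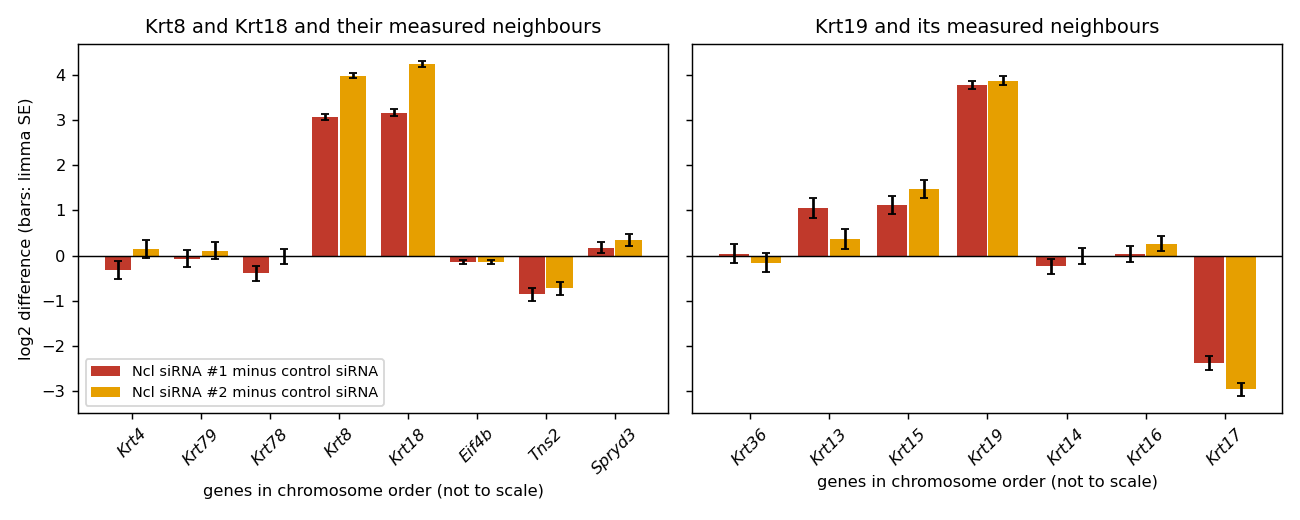
Log2 difference from control siRNA (vertical axis, bars 1 SE from limma) for Krt8, Krt18 and Krt19 and the 3 measured genes on either side, in chromosome order and not to scale, with red for Ncl siRNA #1 and orange for Ncl siRNA #2. Krt8, Krt18 and Krt19 stand above 3 while their neighbours lie below 1.6, and Krt17 lies below -2.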

How the data were processed

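Transcript levels were measured with Affymetrix arrays at 96 h, 2 arrays per group. The log2 values were deposited in normalized form, by a method of the authors that is not given in the sources used here. Detection calls and filters were not used. Of 45101 probe sets, 34958 carried 1 symbol, and the probe set with the highest mean over the 6 arrays stood for each of 18194 genes. A model with 1 mean for each group, run on the 6 arrays with limma 3.58.1 (R 4.3.3), used a variance trend. Benjamini-Hochberg adjustment ran over the 18194 genes, calls were made under 0.05, and a second fit covered all probe sets. On simulated data for siRNA #1 minus siRNA #2, 12 of 67 genes moved by 0.5, 53 of 67 moved by 1 and 65 of 66 moved by 2 were found among 18194 genes, with 1 false call.

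Members, lists, neighbour and naming rules were chosen with earlier results of these data known. Named were all members, up to 4 called genes per list by size of change, called neighbours of Krt8, Krt18 and Krt19, and the 5 nearest profiles to Krt8 and to Krt18. Dsg1a, Dsg1b, Dsc1, Dsc3, Nefl, Nefh, Synm, Grhl2 and some neighbours were named after their values were seen. A level summed over a list is the log2 of the sum of linear values. Promoters, gene order and symbols came from RefSeq and the platform annotation, in which Krt14 and Krt17 also share a probe set, not used here. Alternatives were quantile normalization, median centring, the mean of probe sets, leaving out _x_at and _s_at probe sets or dim genes, variances without trend or robust, only the arrays compared, a replicate block, array weights, and leaving out each array. The number of arrays limits precision.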

Additional observations from a re-analysis of the deposited data

Results flagged for a closer look

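The siRNAs differed from each other in 7 of the 10 genes by the direct test, all lower with siRNA #1. Of all genes, 2.3% were called lower and 6.18% higher, and the share among genes with like differences from control was not counted. The log2 difference, siRNA #1 minus siRNA #2, was -1.08 for Krt18, -0.93 for Dsp, -0.92 for Krt8, -0.90 for Dsc2, -0.84 for Krt7, -0.26 for Dsg2 and -0.23 for Perp. When all probe sets on the array were tested, the calls of Dsc2, Dsg2 and Perp were lost (limma adjusted p of 0.0584, 0.0724 and 0.0520). For Dsc2 the second probe set gave -0.65, and for Dsp the dimmest gave -0.03.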

How the results depend on the processing

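No called difference changed sign under any alternative. For siRNA #1 minus siRNA #2, 1543 genes were called, against 790 with the mean of probe sets and 142 with variances fitted without a trend, and 451 to 4301 when 1 array was left out. The lowest count was without siRNA #2 replicate 1 and the highest without siRNA #1 replicate 2. The 7 member calls became 3 without a trend and 4 to 7 with 1 array left out. Of the related genes, 36 rose and 11 fell, against 29 to 36 and 9 to 17 with 1 array left out. Of the neighbours, 5 rather than 9 rose without genes below the median signal, where fewer genes were tested, and 8 to 11 rose and 11 to 16 fell with 1 array left out. Elsewhere the cause was not tested. Of 64 related or neighbouring genes called, 20 lost the call under at least 1 alternative. With the replicate block 1611 genes were called between the siRNAs and 7 members. Deviations of same-numbered arrays correlated between -0.0186 and 0.0099 across genes, so no strong deviation common to same-numbered arrays was seen. Whether such arrays share a culture or a day is not given. Against control, the 10 genes kept their sign, except Pkp2 (-0.11 to 0.02) and Jup (-0.09 to 0.00) with siRNA #2. Jup had no value without _s_at probe sets. The fit with only the arrays of the groups compared was run for siRNA #1 minus siRNA #2 alone. Signals near the lower quartile (4.17 to 4.32) limit Dsc2 and the dimmest Dsp probe set.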

Other observations

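Among neighbours of the 10 genes, those of Perp were most often higher, a pattern picked out after the values were seen. Of the 6 measured genes around Perp, 4 rose and none fell, beside 20.3% of all genes that rose. Tnfaip3, an inhibitor of NF-kappaB signalling, rose by 1.16 (SE 0.14), Arfgef3 by 0.72 (SE 0.17), Olig3, a transcription factor, by 0.68 (SE 0.15) and Ifngr1, a chain of the interferon gamma receptor, by 0.52 (SE 0.12). Around Dsc2, Cdh2, N-cadherin, rose by 1.79 (SE 0.08), and Dsc3 read -0.35 (SE 0.16) and did not pass.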
